A study of Rattus norvegicus with 10 samples.

Results

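Mki67, Top2a, Ccnb1 and Pcna, 4 genes whose transcripts are used as markers of dividing cells, were followed in whole rat kidney with and without water restriction. They were taken from a count table of 32623 Ensembl genes by their identifiers, and each was kept because it lay on the stated chromosome; all 4 met this condition. All animals were males of the outbred Sprague-Dawley strain. The 5 control rats drank freely and the 5 dehydrated rats had no water for 72 hours (3 days). Kidneys of both groups were taken in the late morning, and polyadenylated RNA of each animal's whole kidney gave 1 library. The labels give no age, and the series was made to find genes of osmoregulation.

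The 4 genes act at different points of the cell cycle. Pcna encodes the sliding clamp that holds DNA polymerase on its template; it is used in replication and also in DNA repair, so cells that are not dividing contain it too. Top2a encodes topoisomerase II alpha, which untangles sister chromatids, Ccnb1 encodes cyclin B1, the partner of the kinase that starts mitosis, and Mki67 encodes the Ki-67 protein that coats mitotic chromosomes. The last group is made mainly in the later phases of the cycle. Few cells of an adult kidney divide under normal conditions.

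The promoter windows of the 4 genes are shown because genes of the later phases often share 2 kinds of short promoter element, the CCAAT box and the cell cycle homology region (CHR), as background from other work. All 4 genes were found by symbol in the RefSeq promoter table of assembly GRCr8, which differs from the assembly of the counts. Each window holds 250 bases before and 50 bases from the annotated start, read 5′ to 3′ on the gene's strand, and all 4 genes lie on the minus strand. Capitals mark CCAAT or ATTGG (the CCAAT box on either strand), TTTGAA or TTCAAA (a CHR on either strand) and TTCGAA (a second CHR form, the same on both strands). The windows are chr1:199952544-199952843 for Mki67, chr10:84473044-84473343 for Top2a, chr2:33655176-33655475 for Ccnb1 and chr3:139955771-139956070 for Pcna.
Mki67: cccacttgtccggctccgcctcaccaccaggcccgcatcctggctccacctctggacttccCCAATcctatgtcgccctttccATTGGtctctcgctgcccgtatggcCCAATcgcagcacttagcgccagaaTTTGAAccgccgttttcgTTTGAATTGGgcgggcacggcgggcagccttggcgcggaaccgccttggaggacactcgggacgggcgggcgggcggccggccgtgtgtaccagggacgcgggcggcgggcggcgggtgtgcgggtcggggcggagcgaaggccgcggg
Top2a: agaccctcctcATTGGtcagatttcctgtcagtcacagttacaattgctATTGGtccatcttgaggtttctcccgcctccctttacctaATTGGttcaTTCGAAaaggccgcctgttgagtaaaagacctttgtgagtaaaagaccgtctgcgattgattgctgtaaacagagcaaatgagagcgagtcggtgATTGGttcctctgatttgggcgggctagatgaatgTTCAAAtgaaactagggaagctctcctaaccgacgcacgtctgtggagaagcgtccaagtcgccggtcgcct
Ccnb1: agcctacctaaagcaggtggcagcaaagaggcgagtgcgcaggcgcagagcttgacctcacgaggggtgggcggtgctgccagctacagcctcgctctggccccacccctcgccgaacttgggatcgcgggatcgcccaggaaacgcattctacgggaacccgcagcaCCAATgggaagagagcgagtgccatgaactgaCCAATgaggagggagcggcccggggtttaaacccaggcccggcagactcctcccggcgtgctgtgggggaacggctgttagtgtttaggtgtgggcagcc
Pcna: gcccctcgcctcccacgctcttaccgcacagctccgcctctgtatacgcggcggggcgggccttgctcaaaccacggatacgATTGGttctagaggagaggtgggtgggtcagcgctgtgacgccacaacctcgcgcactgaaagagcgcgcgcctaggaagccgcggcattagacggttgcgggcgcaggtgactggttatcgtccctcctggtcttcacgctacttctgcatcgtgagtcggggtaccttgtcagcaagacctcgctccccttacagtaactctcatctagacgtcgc

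The windows of Mki67 and Top2a held both elements, with 4 CCAAT boxes each and 2 CHR matches each. In Mki67 the CHR matches began 117 and 99 bases before the start, and the second shares its last base with a CCAAT box that begins 94 bases before the start. In Top2a a TTCGAA match began 152 bases and a TTCAAA match 22 bases before the start. The Ccnb1 window had 2 CCAAT boxes on the gene's strand, 82 and 50 bases before the start, and no CHR match in these letters. The Pcna window had 1 CCAAT box, 168 bases before the start, and no CHR match. As CHR only TTTGAA and TTCGAA were searched, so a window without a match may still hold another form. Over all 33469 promoters of the table, 37.5% held a CCAAT box, 11.2% held 2 or more, 19.7% held either CHR form and 7.95% held a CCAAT box with a CHR. The E2F site, another element of cell cycle genes, was searched on both strands as TTTCCCGC, TTTGGCGC and TTTCGCGC; none of the 4 windows held one, and 1.72% of all promoters did. Other spellings of the E2F site were not searched, so these windows may still hold one. GC boxes (GGGCGG on either strand; 33.1% of all promoters) numbered 7 in Mki67 and 1 in each of the other windows; they are not in capitals, and 1 of those in Mki67 overlaps the CCAAT box at 94 bases. The window of Mki67 is placed at a start that lies 254 bases inside the outer end of the RefSeq gene, so another start of this gene lies outside it. A match of letters does not show that a factor bound there.

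**Figure D1:**
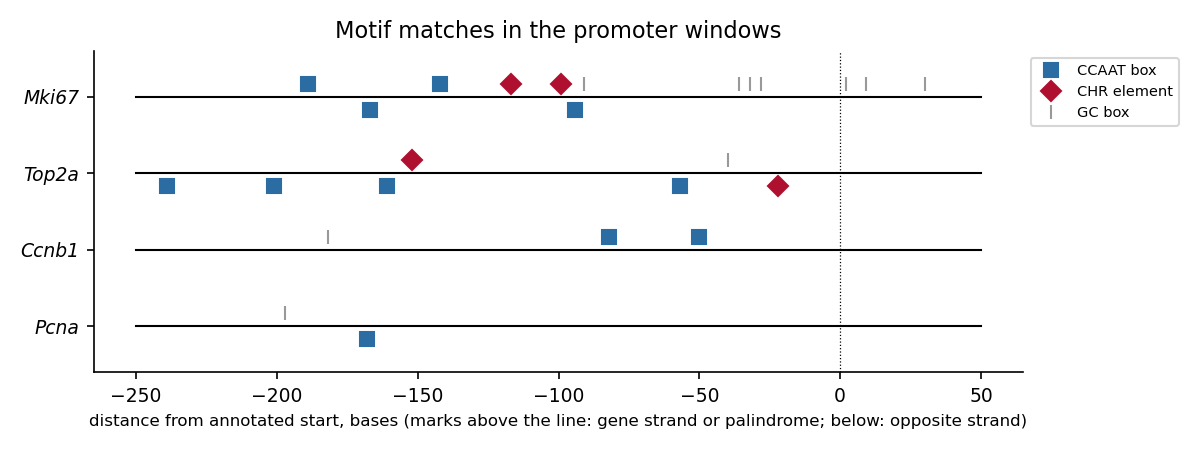
Positions of the motif matches in the 4 promoter windows, by distance of the first base from the annotated start; squares are CCAAT boxes, diamonds CHR elements and ticks GC boxes, above the line on the gene's strand (or palindromic) and below it on the opposite strand. Mki67 and Top2a carry both squares and diamonds, Ccnb1 carries 2 squares and Pcna 1.

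Libraries held 29454213 to 35898689 assigned fragments, and the ranges of the groups overlapped. Replicate libraries of a group differed by more than counting noise in all 20 pairs (chi-square per degree of freedom 13.3 to 32.0). The 2 libraries numbered 6 have names with the opposite group's letter, whereas title and treatment label agree; groups follow the titles here. The fold changes, ratios, correlations, spreads and lists of alike genes below are therefore also given without these 2 libraries, and the calls also with the pair exchanged between the groups. Symbols of other genes are not paired with identifiers in the tables used here, so markers of kidney cell types and other cell cycle genes could not be looked up by name.

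Mki67, Top2a and Ccnb1 were lower in the kidneys of dehydrated rats, at 48.8%, 39.3% and 54.2% of their control level, while Pcna stood at 98.5%. Thus 3 of the 4 genes fell and none rose. Among all 15047 tested genes, 8.47% were called in either direction and 3.77% were called lower (edgeR's quasi-likelihood test, Benjamini-Hochberg adjusted p below 0.05). The median log2 fold change was -0.96 over the 4 genes and -0.0047 over all tested genes. For Mki67, Top2a and Ccnb1 each of the 5 dehydrated kidneys lay below each of the 5 control kidneys, a separation seen in this direction for 3.48% of tested genes. With the libraries numbered 6 exchanged between the groups all 3 calls were lost: the log2 fold changes were -0.60 for Mki67 (edgeR adjusted p = 0.469), -0.88 for Top2a (0.438) and -0.70 for Ccnb1 (0.386). In that exchanged fit edgeR called 0 of all 15047 tested genes, so the loss was not particular to these 3. In a whole organ, fewer dividing cells and less of these transcripts per cell cannot be told apart.

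**Figure D2:**
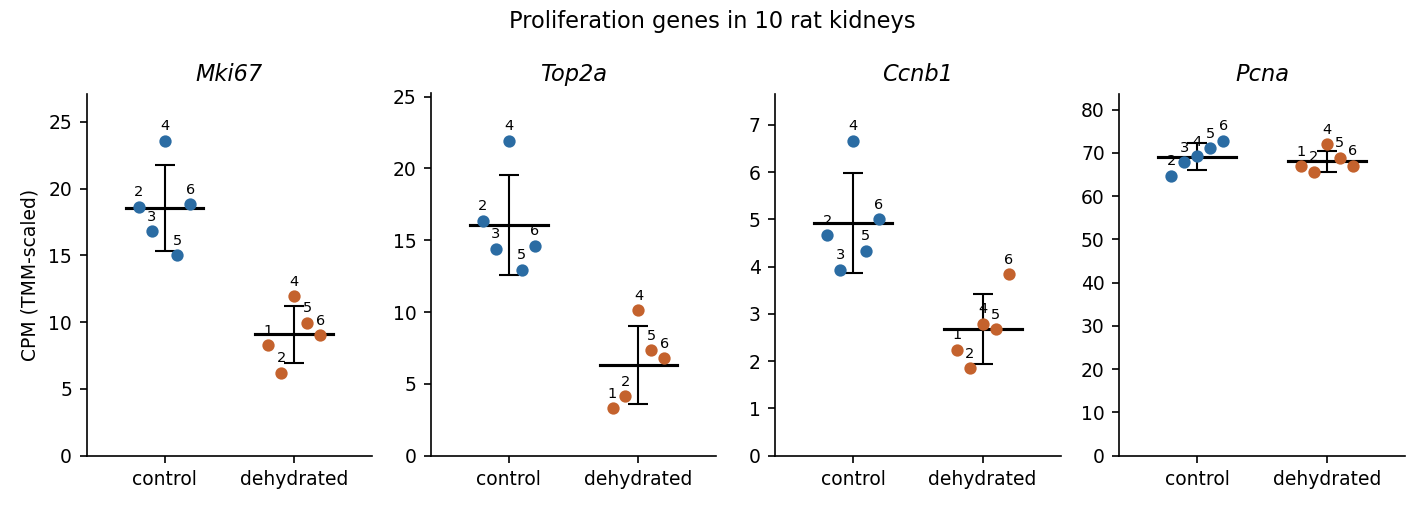
CPM (counts per 1000000 fragments, TMM-scaled, axes from 0) of each gene in each kidney; points are animals with their replicate number, the long bar is the group mean and the error bar the SD (n = 5). The dehydrated points of Mki67, Top2a and Ccnb1 lie below all control points, and those of Pcna lie among them.

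Mki67 (ENSRNOG00000028137) lies on chromosome 1 of assembly Rnor_6.0, from 207993895 to 208020454 on the minus strand, with 15 annotated exons of 9880 bp in all. Its level, in counts per 1000000 fragments scaled by TMM (CPM), was 18.6, 16.8, 23.6, 15.0 and 18.8 CPM in control replicates 2, 3, 4, 5 and 6. In dehydrated replicates 1, 2, 4, 5 and 6 it was 8.27, 6.20, 11.9, 9.95 and 9.04 CPM. The highest dehydrated kidney was below the lowest control kidney, and control replicate 4 was the highest of all. The group means were 18.6 ± 3.21 CPM for controls and 9.08 ± 2.12 CPM after water restriction (SD, n = 5). The log2 fold change was -1.03 (SE 0.16, 95% interval -1.37 to -0.70, edgeR adjusted p = 0.00127). These levels rest on 517 to 828 fragments per control library and 205 to 365 per dehydrated library. Without both libraries numbered 6 the log2 fold change was -1.03 (edgeR adjusted p = 0.0110).

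Top2a (ENSRNOG00000053047) changed most of the 4 genes. It lies on chromosome 10 from 86901007 to 86932154 (minus strand, Rnor_6.0) and has 35 exons of 5589 bp after merging overlapping annotation. Control replicates 2, 3, 4, 5 and 6 had 16.4, 14.4, 21.9, 12.95 and 14.6 CPM. Dehydrated replicates 1, 2, 4, 5 and 6 had 3.32, 4.15, 10.1, 7.33 and 6.77 CPM. Replicate 4 was the highest kidney of both groups, and dehydrated replicates 1 and 2 stood below the other dehydrated kidneys. The means were 16.1 ± 3.50 CPM for controls and 6.34 ± 2.71 CPM for dehydrated kidneys (SD, n = 5), with a log2 fold change of -1.35 (SE 0.25, 95% interval -1.88 to -0.82, edgeR adjusted p = 0.00439). Among the 15047 tested genes it was the 34th from the lowest log2 fold change. Without both libraries numbered 6 it was -1.41 (edgeR adjusted p = 0.0205).

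Ccnb1 (ENSRNOG00000058539) had the lowest fragment counts, 121 to 234 per control library and 61 to 115 per dehydrated library. It lies on chromosome 2 from 30783915 to 30791221 (minus strand, Rnor_6.0), with 9 exons of 1606 bp. Control replicates 2, 3, 4, 5 and 6 had 4.67, 3.93, 6.66, 4.34 and 5.01 CPM. Dehydrated replicates 1, 2, 4, 5 and 6 had 2.24, 1.85, 2.79, 2.67 and 3.83 CPM. The groups came close at their edges: dehydrated replicate 6, at 3.83 CPM, lay just under control replicate 3, at 3.93 CPM. The means were 4.92 ± 1.05 CPM for controls and 2.68 ± 0.747 CPM for dehydrated kidneys (SD, n = 5). The log2 fold change was -0.88 (SE 0.19, 95% interval -1.30 to -0.47, edgeR adjusted p = 0.0113), and -1.04 without both libraries numbered 6 (edgeR adjusted p = 0.0112).

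Pcna (ENSRNOG00000021264), the replication and repair clamp, did not pass the test. It lies on chromosome 3 from 124880698 to 124884570 (minus strand, Rnor_6.0), with 6 exons of 1160 bp. Control replicates 2, 3, 4, 5 and 6 had 64.7, 67.9, 69.2, 71.1 and 72.8 CPM. Dehydrated replicates 1, 2, 4, 5 and 6 had 66.9, 65.7, 72.0, 68.8 and 67.0 CPM, all inside the control range. The means were 69.1 ± 3.10 and 68.1 ± 2.44 CPM (SD, n = 5). Its log2 fold change of -0.022 had an SE of 0.049 (edgeR adjusted p = 0.863). Its 95% interval, -0.13 to 0.084, corresponds to 91.5% to 106% of the control level, so a fall of the size seen for the other genes lies outside it. Without both libraries numbered 6 the value was 0.00036 (edgeR adjusted p = 0.999).

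**Figure D3:**
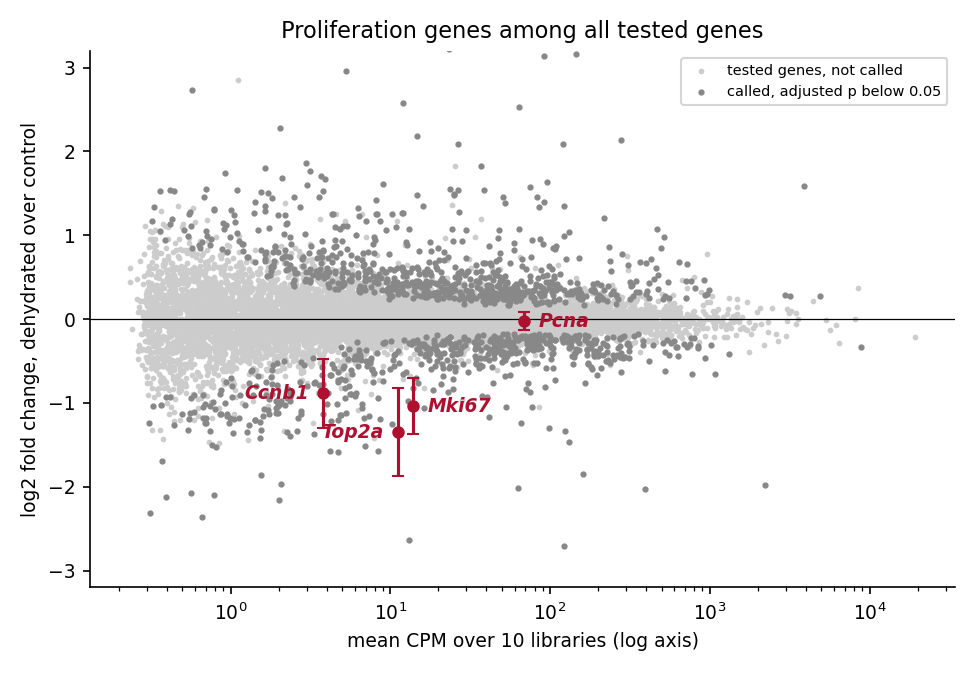
Log2 fold change (dehydrated over control) of all 15047 tested genes against mean CPM (log axis); dark grey points were called, and red points with 95% intervals are the 4 genes. Mki67, Top2a and Ccnb1 lie at -1.03, -1.35 and -0.88 and Pcna at -0.022; 6 tested genes lie beyond the vertical limits of 3.2.

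Within the whole comparison the 3 genes that fell were among the larger decreases. The median log2 fold change of the 568 genes called lower was -0.45, and 100 genes called lower fell more than 2-fold, Mki67 and Top2a among them. Ccnb1, with the smallest fall of the 3, was 175th from the lowest log2 fold change, and 1.16% of tested genes lay at or below it. By p-value they stood at ranks 163 (Mki67), 327 (Top2a) and 592 (Ccnb1) of 15047. Top2a fell further than Mki67 but with a larger SE.

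The spread between animals was wide for the late-phase genes and narrow for Pcna. The coefficient of variation (SD as a percent of the mean CPM) of Mki67 was 17.3% in control and 23.3% in dehydrated kidneys, where counting error alone would give 4.12% and 5.93%. For Top2a it was 21.8% and 42.8%, beside a counting error of 4.46% and 7.46%, and the highest dehydrated kidney had 3.05 times the level of the lowest. For Ccnb1 it was 21.4% and 27.9% beside 8.06% and 10.95%. For Pcna it was 4.49% and 3.59% beside 2.11% and 2.12%. The median over all tested genes was 9.54% in control and 9.47% in dehydrated kidneys. The dehydrated spread of Mki67, Top2a, Ccnb1 and Pcna was as large as or larger than that of 86.4%, 97.1%, 90.4% and 6.53% of tested genes. In control kidneys these shares were 77.0%, 84.3%, 83.8% and 12.1%. The spread was not compared with that of genes of like level. When the libraries numbered 6 were left out, the coefficient of variation of dehydrated kidneys was 26.9% for Mki67, 50.1% for Top2a, 18.1% for Ccnb1 and 4.00% for Pcna, so that of Ccnb1 was over 1.5 times lower. Whether the spread of Top2a differed between the groups was not tested.

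Levels of the 4 genes can be compared with each other only per exon length. As CPM per kilobase of exon (FPKM), control kidneys had 1.88 ± 0.325 FPKM of Mki67, 2.87 ± 0.626 FPKM of Top2a, 3.06 ± 0.655 FPKM of Ccnb1 and 59.6 ± 2.67 FPKM of Pcna (SD, n = 5). Dehydrated kidneys had 0.919 ± 0.214, 1.13 ± 0.485, 1.67 ± 0.465 and 58.7 ± 2.11 FPKM of the same genes (SD, n = 5). The order of mean levels was the same in both groups, from Mki67 to Pcna, also without both libraries numbered 6. In control kidneys the ranges of Top2a and Ccnb1 overlapped, those of Mki67 and Top2a overlapped at their edges, and those of Mki67 and Ccnb1 did not. In dehydrated kidneys the ranges of these 3 genes all overlapped. Pcna stood far above the others in each kidney.

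Ratios of FPKM within a library compare the genes without the scaling between libraries; they were added after the values were seen, and all 6 pairs of the 4 genes were tested. The ratio of Pcna to Mki67 was 32.5 ± 5.72 for controls and 66.5 ± 14.7 for dehydrated kidneys (SD, n = 5; 2.04-fold, exact two-sided permutation p = 0.00794, adjusted p = 0.0159 over the 6 pairs). Control values ran from 25.0 to 40.4 and dehydrated values from 51.3 to 90.2, without overlap. The ratio of Pcna to Top2a was 21.5 ± 4.40 and 60.1 ± 25.8, and that of Pcna to Ccnb1 20.1 ± 3.70 and 37.2 ± 9.16 (SD, n = 5), each with the same exact permutation p of 0.00794, the smallest that 252 assignments of the libraries can give. With the titled groups the ratio of Pcna to each late-phase gene thus did not overlap between the groups. For Pcna to Ccnb1 the edges were close, at 23.9 for the highest control and 24.2 for the lowest dehydrated kidney. Without both libraries numbered 6 the log2 differences were 1.05, 1.51 and 1.03 for Mki67, Top2a and Ccnb1 (adjusted exact permutation p = 0.0429 each). With these libraries exchanged the log2 difference of Pcna to Mki67 went from 1.03 to 0.65, that of Pcna to Top2a to 1.01 and that of Pcna to Ccnb1 to 0.77, and none of the 3 passed (adjusted exact permutation p = 0.143 each). These 6 ratios share 4 genes and are not independent. Mki67, Top2a and Ccnb1 each already separated the groups and Pcna varied little between kidneys. The Pcna ratios therefore restate that separation, and their permutation p is not a further result.

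Among the late-phase genes the ratios moved less. The ratio of Top2a to Mki67 was 1.52 ± 0.0979 for controls and 1.20 ± 0.298 for dehydrated kidneys (SD, n = 5; exact permutation p = 0.0159, adjusted p = 0.0238). The groups overlapped, and dehydrated replicate 1, at 0.711, lay far below the other dehydrated kidneys, at 1.18 to 1.499. Without that kidney the log2 difference went from -0.38 to -0.20 and its adjusted exact permutation p to 0.0714. The adjusted exact permutation p was also above 0.05 without control replicate 2, 3 or 5 (0.0714 each) or control replicate 4 (0.0952), although the log2 difference there stayed at -0.37, -0.38, -0.38 and -0.35. It was -0.46 without both libraries numbered 6 (adjusted exact permutation p = 0.0429) and -0.36 with them exchanged (0.143). The ratio of Ccnb1 to Mki67 was 1.63 ± 0.140 and 1.84 ± 0.453 (SD, n = 5; exact permutation p = 0.437, adjusted p = 0.437). The ratio of Ccnb1 to Top2a was 1.07 ± 0.106 and 1.62 ± 0.553 (SD, n = 5; exact permutation p = 0.0635, adjusted p = 0.0762). It passed the threshold only without dehydrated replicate 4, where the log2 difference went from 0.53 to 0.70 (adjusted exact permutation p = 0.00952). The log2 differences without both libraries numbered 6 of Ccnb1 to Mki67 and to Top2a were 0.020 and 0.48 (adjusted exact permutation p = 0.886 and 0.171).

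**Figure D4:**
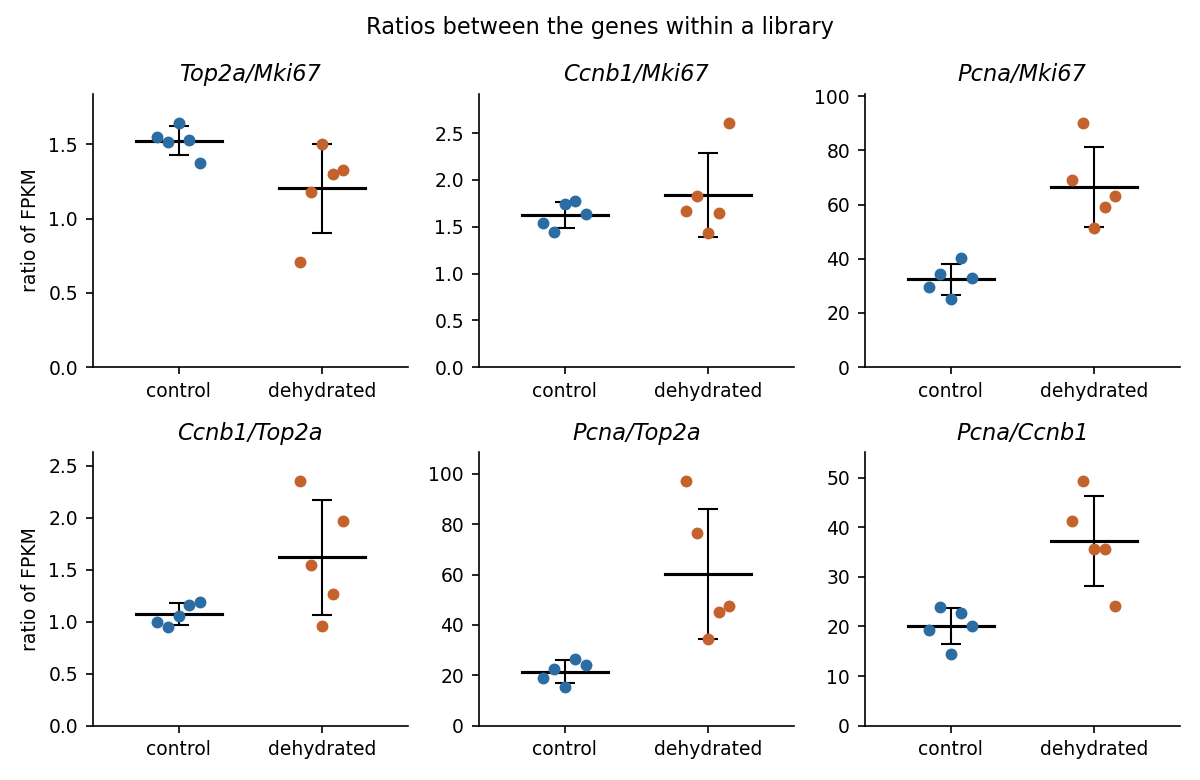
Ratio of FPKM of each pair of the 4 genes within a library (axes from 0); points are kidneys, bars the mean and SD (n = 5). The ratios of Pcna to Mki67, Top2a and Ccnb1 do not overlap between the groups, and the other ratios do.

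Within the groups, kidneys with more Mki67 also had more Top2a. With log2 FPKM centred on the group mean, Pearson's r over the 10 kidneys was 0.83 (exact permutation within groups, p = 0.0079, adjusted p = 0.048 over 6 pairs) and Spearman's rho 0.89 (p = 0.0018, adjusted p = 0.011, same permutation test). Without the 2 kidneys farthest from the median of the first-named gene of the pair, here dehydrated replicates 2 and 4, r was 0.74. For Mki67 and Ccnb1, r was 0.72 (p = 0.04, adjusted p = 0.12) and rho 0.82 (p = 0.011, adjusted p = 0.034), by the same exact permutation, with r of 0.68 without the same 2 kidneys. For Top2a and Ccnb1, r was 0.67 (p = 0.067, adjusted p = 0.13) and rho 0.81 (p = 0.02, adjusted p = 0.041), by the same exact permutation, with r of 0.83 without dehydrated replicates 1 and 4. Pairs with Pcna had r of 0.24 to 0.42 and rho of 0.45 to 0.59, with adjusted exact permutation p of 0.33 to 0.51 for r and 0.14 to 0.21 for rho. For Mki67 and Pcna r became -0.030 without dehydrated replicates 2 and 4. Without both libraries numbered 6 (8 kidneys, exact permutation within groups) r was 0.85 for Mki67 and Top2a (adjusted p = 0.066), 0.91 for Mki67 and Ccnb1 (adjusted p = 0.042) and 0.76 for Top2a and Ccnb1 (adjusted p = 0.066), so the first pair no longer passed and the second did; rho was 0.86, 0.95 and 0.81 (adjusted p = 0.059, 0.021 and 0.059, same permutation test). Pairs with Pcna, also without both libraries numbered 6, had r of 0.47 with Mki67, 0.54 with Top2a and 0.47 with Ccnb1. Their adjusted exact permutation p was 0.29 each. All genes of a library share its depth and scaling.

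Other genes that varied like the late-phase genes among kidneys of a group were found by Pearson's r of group-centred log2 CPM with the mean of the scaled values of Mki67, Top2a and Ccnb1, over 10 libraries and the 12546 genes that averaged 2 CPM or more. Because the values were centred, the difference between the groups did not enter r. It could enter the limit of 2 CPM, a mean over both groups that a gene can pass by its control level. ENSRNOG00000015308, for one, averaged 4.83 CPM in controls and 1.88 CPM in dehydrated kidneys. Other genes called lower among the 20 most alike also averaged below 2 CPM in dehydrated kidneys, down to 1.59 CPM. Such genes passed the limit by their control level and are included in the counts below. The 5 most alike genes had r of 0.92 to 0.96, and all 5 were called lower in dehydrated kidneys, with a median log2 fold change of -1.16. The closest was ENSRNOG00000015308 (chromosome 15, 42489377 to 42500395, plus strand, Rnor_6.0; r = 0.96), at 4.83 ± 1.58 CPM for controls and 1.88 ± 0.812 CPM for dehydrated kidneys (SD, n = 5; log2 fold change -1.37, SE 0.28, edgeR adjusted p = 0.00811). Next was ENSRNOG00000024428 (chromosome 18, 27424328 to 27432814, plus strand; r = 0.95), at 6.56 ± 2.16 and 2.86 ± 0.998 CPM (SD, n = 5; log2 fold change -1.20, SE 0.24, edgeR adjusted p = 0.00809). Of the 20 most alike genes 13 were called lower and 0 higher, of 50 genes 19 and 0, and of 100 genes 23 and 1, beside 3.77% called lower among all tested genes. That share includes genes under 2 CPM, which could not enter these lists. The share among the 12546 genes compared was not computed. The 20 genes had r down to 0.85 and a median log2 fold change of -0.73. In the fit without both libraries numbered 6 the same 5 genes were again called lower and 10 of the same 20. A list chosen anew on those 8 libraries shared 10 of its 20 genes with this one, and 8 of its 20 were called lower. Of its 5 most alike genes 2 were shared with the 5 above, and 2 were called lower. Among all genes tested there 2.89% were called lower. These calls, like all others of edgeR, were lost with the pair of libraries exchanged.

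The genes most like Pcna were found by the same measure. The 5 most alike had r of 0.89 to 0.91; edgeR, DESeq2 and limma each called 0 of them, 1 had an unadjusted p below 0.05 in edgeR, and their median log2 fold change was -0.052. The closest was ENSRNOG00000039234 (chromosome 12, 19262977 to 19277910, plus strand, Rnor_6.0; r = 0.91), at 28.8 ± 1.89 CPM for controls and 29.3 ± 1.35 CPM for dehydrated kidneys (SD, n = 5; log2 fold change 0.025, edgeR adjusted p = 0.872). Of the 20 most alike genes 1 was called lower and 2 higher, of 50 genes 2 and 2, and of 100 genes 3 and 5, beside 8.47% of all tested genes called in either direction. This share, too, includes genes of low level that could not enter the list. A list chosen anew without both libraries numbered 6 shared 5 of its 20 genes with this one. The difference between the 2 sets of alike genes was not tested.

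The nearest tested genes along the chromosomes, 1 on each side of each of the 4 genes, gave 0 calls of 8 in edgeR, DESeq2 and limma, and 1 had an unadjusted p below 0.05 in edgeR. Their log2 fold changes ran from -0.12 to 0.21; this is a description of 8 genes, beside 8.47% called among all tested genes. The neighbours lay between 1482 and 1216779 bp away. No other annotated gene overlaps the span of any of the 4 genes in the annotation used for counting. Fragments from near-identical copies elsewhere in the genome could still be counted here or lost, and this was not examined.

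In the authors' deposited table, made with DESeq2 from the same libraries, the log2 fold changes were -1.03 for Mki67 (SE 0.16, adjusted p = 6.9e-09), -1.34 for Top2a (SE 0.31, adjusted p = 0.00041), -0.88 for Ccnb1 (SE 0.20, adjusted p = 0.00019) and -0.022 for Pcna (SE 0.052, adjusted p = 0.888). The sizes differ little from those of edgeR, while the adjusted p-values in the authors' deposited table are smaller for the 3 genes that fell.

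The 3 calls held in each of 16 other fits that kept the groups of the titles; log2 fold changes ranged over -1.15 to -0.92 for Mki67, -1.58 to -1.18 for Top2a and -1.04 to -0.74 for Ccnb1. Pcna was called in 0 of the 16, with values of -0.045 to 0.00036. With the 2 libraries numbered 6 exchanged between the groups, 0 of the 4 genes were called by edgeR, DESeq2 or limma. Of all tested genes edgeR then called 0 and limma 0 (1654 and 1687 at an unadjusted p below 0.05) and DESeq2 75.

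**Figure D5:**
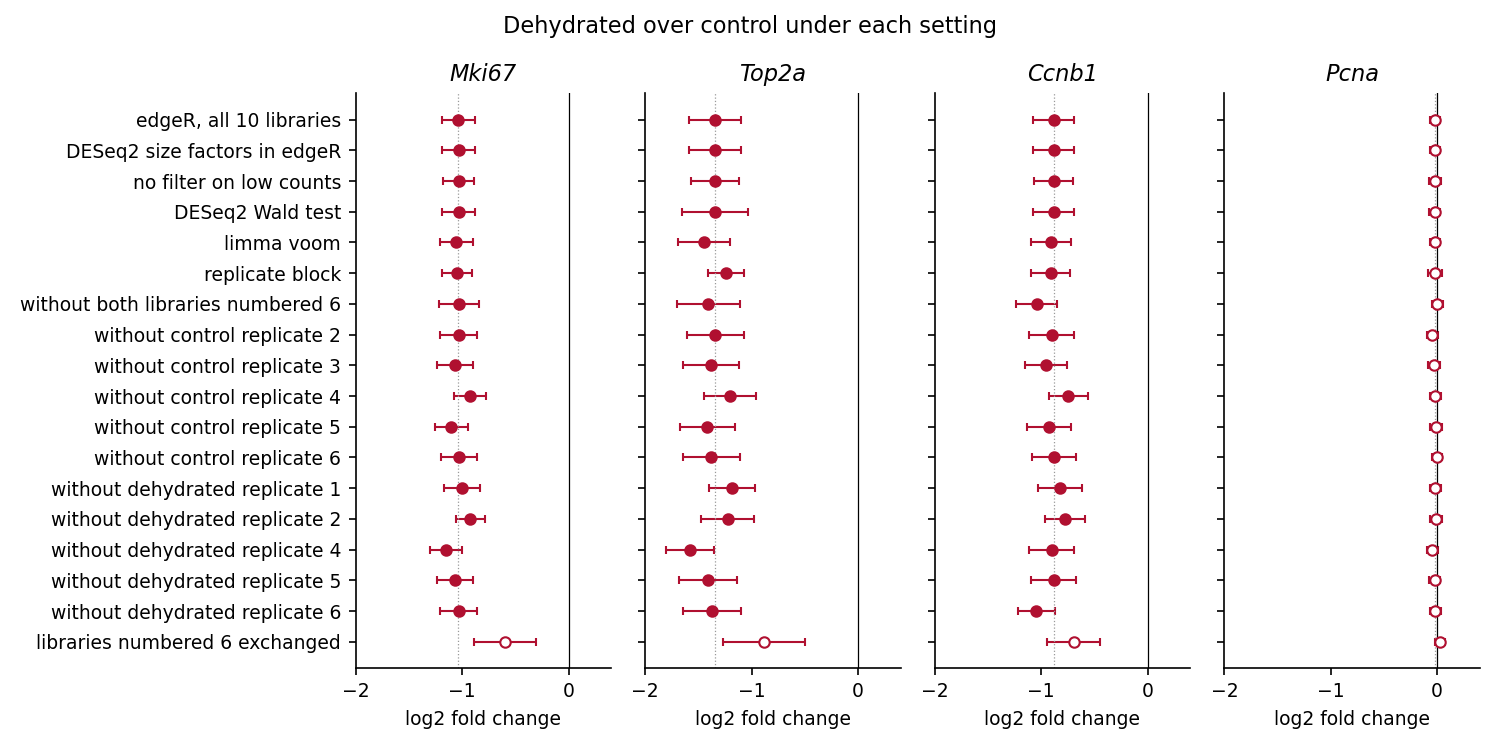
Log2 fold change (dehydrated over control) of each gene under each setting, with its SE; filled points have an adjusted p below 0.05 and open points do not. Mki67, Top2a and Ccnb1 are called in every setting that keeps the titled groups and not with the libraries numbered 6 exchanged; Pcna is called in none.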

How the data were processed

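The table holds fragment counts per Ensembl gene, made by the authors with featureCounts 1.6.2 (paired-end, strand setting 2) from trimmed reads aligned with Rsubread, with Ensembl release 103 genes of Rnor 6.0, per the file headers. The authors also deposited log2 fold changes with SE, p-values and adjusted p-values of their DESeq2 comparison, per the file headers and the submitters' processing notes. Its 10 columns of per-library values were not used. A DESeq2 refit with the titled groups gave its log2 fold changes within 0.001 for all 15284 genes it lists. Aligner version and settings: not given in the sources used here.

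Here edgeR 4.0.16 in R 4.3.3 (glmQLFit, glmQLFTest) was fitted to all libraries with TMM and no covariate. Genes passed filterByExpr (minimum count 10, minimum total 15), as all 4 genes did; 15047 of 21311 genes with counts were tested, and p-values were adjusted over all of them. SE is the absolute log2 fold change over the square root of F. CPM is relative to the total of tested genes; FPKM divides it by the exonic length in the table. Log2 CPM for likeness used a prior count of 2. The fit was tested on simulated data. Alternatives used DESeq2 1.42.0 and limma 3.58.1. Precision is set by 5 animals a group.

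The 4 genes, lists and tests were chosen with earlier results of these data known. Named genes were the 4 genes and, of the 5 most alike to each profile, the first by identifier (2 for the late-phase genes, 1 for Pcna), within the rule's limit of 2 in each direction where symbols are not paired, because 0 rows of the reference table hold an Ensembl identifier. For that reason 15 planned lists of cell cycle genes and cell type markers were not analysed.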

Additional observations from a re-analysis of the deposited data

How the results depend on the processing

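Pcna changed sign, at a value near 0, without both libraries numbered 6 (0.00036) and with them exchanged (0.026), and was called in neither fit. Exchanging these 2 libraries ended the calls of all 3 Pcna ratios and of Top2a to Mki67 (adjusted exact permutation p = 0.143 each), gave log2 fold changes of -0.60 for Mki67 (edgeR adjusted p = 0.469), -0.88 for Top2a (0.438) and -0.70 for Ccnb1 (0.386), so 0 of the 4 genes were called, and turned the log2 difference of the ratio of Ccnb1 to Mki67 to -0.12. If the titles are right, the exchange mixes treatments within groups. Leaving out 1 library gave -1.15 to -0.92 for Mki67, -1.58 to -1.18 for Top2a, -1.04 to -0.74 for Ccnb1 and -0.045 to -0.0038 for Pcna; the highest edgeR adjusted p of the 3 called genes was 0.0322, for Ccnb1 without control replicate 4. With the replicate number as a block (replicate block, 4 pairs) the values were -1.05, -1.24, -0.91 and -0.022, and no call changed; over all genes 772 were called in place of 1275. Deviations from the group means in libraries of the same number had r of -0.054 to 0.14, 1 of 4 over 0.1, and 1 of 4 libraries was closest to its own number, so the numbers were not taken as pairs. An adjusted p below 0.1, no filter, DESeq2 (its size factors, or its own test) and limma voom changed no call of the 4 genes. Ccnb1 had the fewest counts, 61 to 115 in dehydrated kidneys. In none of the 20 sets of 5 values did the gap from the highest or lowest kidney to the next exceed 0.71 of the range, Dixon's 95% critical value.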
